A study of Mus musculus with 6 samples.

Results

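The cytosolic ribosomal protein genes were taken from a table of read counts by name: every symbol of the letters Rpl or Rps followed by a digit, together with Rplp0, Rplp1, Rplp2 and Rpsa, and without the S6 kinases (Rps6k) and the symbols that carry -ps. The rule took 88 of the 24421 genes of the table, 34 for proteins of the small subunit, 53 for proteins of the large subunit and 1, Rps19bp1, whose product binds a ribosomal protein and is not one itself. The 6 libraries came from lineage-depleted marrow of C57BL/6 mice of the genotype Dek -/-, which the vehicle group and the DEK group share. Vehicle was given to 3 of them and exogenous DEK to the other 3, and each group carries the replicate numbers 1, 2 and 3. DEK is a chromatin-binding protein that blood cells can also release, and lineage depletion removes cells that carry surface markers of mature blood lineages. The sources used here do not give the age of the mice, the dose or the time, or whether libraries came from separate animals, so p-values measure only the spread between these libraries.

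Each cytosolic ribosome is built from a small subunit, which reads the mRNA, and a large subunit, which joins the amino acids. Its proteins are made in near-equal numbers, and their mRNAs typically begin with a C followed by a run of pyrimidines, the terminal oligopyrimidine (TOP) motif, through which mTOR and LARP1 control their translation together. Blood formation is sensitive to their supply: loss of 1 copy of any of several of these genes causes Diamond-Blackfan anaemia, a failure of red cell production.

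The libraries held 34875736 to 49128378 counts. Dek itself had 672 to 869 counts in every library, 16.5 to 21.8 CPM (counts scaled to a common library size with edgeR's TMM factors), and the part of the gene that was deleted is not given in the sources used here. Vehicle replicate 1 stood apart in the ribosomal RNA precursor Rn45s, at 48420 CPM against 1512 to 3207 in the rest. Both libraries numbered 3 stood apart in neutrophil transcripts: the 13 neutrophil markers with a row summed to 69540 to 74170 CPM in them and to 13780 to 16220 in the other 4. Of the erythroid markers, Hba-a1, Hbb-bs and Hbb-bt were listed at 0 in every library.

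The measured levels were first compared per length of exon. Among the highest of the 85 genes that passed the filter on low counts were Rplp1, a protein of the stalk that binds elongation factors, at 1672 CPM per kb, and Rps9, a small subunit protein, at 1626. The 3 lowest were Rpl5 at 0.294, Rpl39l at 0.300 and Rpl30, which shares 76% of its exon bases with Gm12191, at 0.326 CPM per kb. The ranges over the 6 libraries overlapped between Rplp1, at 914 to 2367 CPM per kb, and Rps9, and also among the 3 lowest, so the order within either set was not resolved. Rpl26, Rpl10l and Rps27rt had 0 counts in all libraries. Counts were concentrated in few genes: the first 20 held 82.6% of the counts of the 88 genes, among them Rpl4, Rps3, Rpl8 and Rps9.

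The way reads were counted can bear on such levels. Per the file header no option was set for reads that map to several places or that lie in exons of several genes, and by the tool's default such reads are not counted. Ribosomal protein mRNAs have many processed copies in the genome, and 12 of the 88 genes share exon bases with another gene of the table. Rpl26 shares 95.8% of its exon bases with Gm15772, Rps27rt shares 100% with Rps27, and Rpl5, whose product binds the 5S ribosomal RNA, shares 47.7% with Fam69a on the opposite strand. To measure the sequence shared with copies, 1 mRNA per gene (GENCODE M21, GRCm38) was split into overlapping windows, and each window was searched in the transcripts of all other genes that do not lie over the member's own locus. The windows below, read from those mRNAs, are given because they show how exact the copies are, and each is the 50-base stretch of its coding sequence that most other annotated genes contain.
Rpl7a, coding bases 429 to 478, found in 45 other genes: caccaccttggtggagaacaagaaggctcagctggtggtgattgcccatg
Rpl21, coding bases 96 to 145, found in 44 other genes: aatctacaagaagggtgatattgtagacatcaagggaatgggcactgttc
Rps2, coding bases 653 to 702, found in 33 other genes: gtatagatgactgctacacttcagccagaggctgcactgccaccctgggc

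With windows of 75 bases, Rpl7a shared its windows with 64 other genes, all 64 of them annotated as pseudogenes, and Rps2 with 50, all 50 pseudogenes. Rps3, a small subunit protein at 932 CPM per kb, had 0% of its windows in another gene. The mRNA chosen and the counted exons could differ in length. They had 3706 against 502 bases for Rps20, 1242 against 638 for Rpl12 and 878 against 1394 for Rps6. The percentages, and the classes made from them, refer to that mRNA and not to the counted exons. The 20 genes with under 20% of windows shared had a median level of 486 CPM per kb, the 34 with 20 to under 50% had 78.0, and the 31 with 50% or more had 4.79. Spearman's rho between the shared percentage and the level was -0.41 over 85 genes, given as a description, and -0.34 and -0.45 with windows of 50 and 100 bases. Without 8 rows, 7 paralogs and Rps19bp1, several of which are low in level and share little, rho was -0.57 over 77 genes with 75 bases. Leaving out rows that are low and share little makes rho more negative by itself, so this value adds no support. The read length is not given in the sources used here, and which reads went uncounted was not measured. The parts of shared sequence and of unequal transcription in the spread of levels were not tested.

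**Figure D1:**
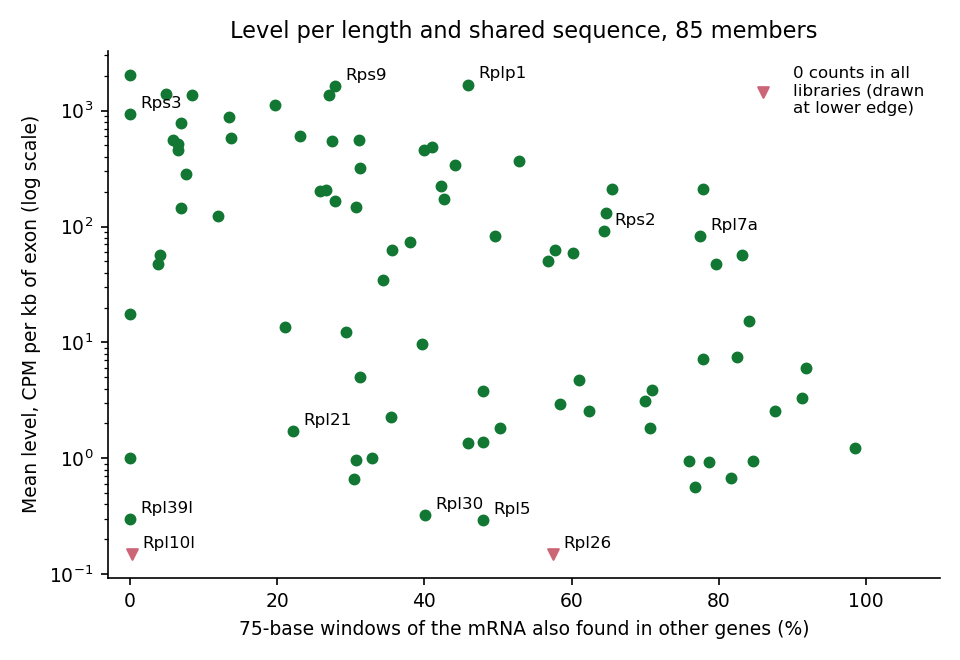
Mean level of each gene over 6 libraries (CPM per kb of exon, log axis) against the percentage of its 75-base mRNA windows that occur in transcripts of other genes. Points are 85 genes with an mRNA in the annotation and triangles mark the genes among them with 0 counts. That mRNA can differ in length from the counted exons. Of 20 genes with under 20% shared, 14 reached 100 CPM per kb or more. So did 16 of 34 with 20 to under 50% and 4 of 31 with 50% or more. Rps3 shares 0%, and Rplp1, among the highest, shares 45.9%. Rpl21 at 22.1% is among the genes that are low with few shared windows.

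The TOP motif was looked for at the starts of these genes. RefSeq promoter sequence (GRCm38.p6) was matched for 66 of the 88, and a run of at least 5 pyrimidines was counted, on the gene's own strand. The run was read from the first C of the stretch within 5 bases of the annotated start. More pyrimidines could lie before that C, as in Rpl14 and Rpl35 below. Such a run stood at 28 of the 66 starts (42.4%), at 20.2% of the starts of 10499 tested genes with sequence, at 15 of 68 starts (22.1%) of mitochondrial ribosomal protein genes and at 8 of 17 (47.1%) of other mRNAs known to carry a TOP motif. The windows below run from 20 bases before the annotated start through its first 20 bases, 5′ to 3′ on the strand of the gene, with the run in capitals. They show runs close to the start for proteins of both subunits and, last, the start of Rps3a1, which had none by this rule and was the member called between replicate numbers 2 and 1.
Rpl27a, chr7:109519175-109519214, plus strand: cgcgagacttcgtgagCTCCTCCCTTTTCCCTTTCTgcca
Rpl35, chr2:39005112-39005151, minus strand: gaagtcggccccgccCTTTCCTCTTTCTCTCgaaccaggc
Rpl14, chr9:120571497-120571536, plus strand: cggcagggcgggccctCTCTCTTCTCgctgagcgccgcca
Rplp2, chr7:141447631-141447670, plus strand: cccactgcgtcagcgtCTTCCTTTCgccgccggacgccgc
Rps6, chr4:86857348-86857387, minus strand: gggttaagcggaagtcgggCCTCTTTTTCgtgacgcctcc
Rps21, chr2:180257359-180257398, plus strand: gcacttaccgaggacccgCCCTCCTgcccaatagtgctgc
Rps3a1, chr3:86142649-86142688, minus strand: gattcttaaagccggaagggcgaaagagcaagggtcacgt

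The first comparison, DEK against vehicle, follows from the title of the series. The 88 genes took 1.99, 2.35 and 1.28% of counts with vehicle and 2.13, 2.00 and 1.13% with DEK in replicates 1, 2 and 3, or 1.87 ± 0.546% and 1.75 ± 0.542% (mean ± SD, n = 3 each). Counting error alone gave 95% Wilson intervals no wider than ± 0.00482 points. The groups overlapped over almost their whole range, and in both groups the library numbered 3 was the lowest.

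**Figure D2:**
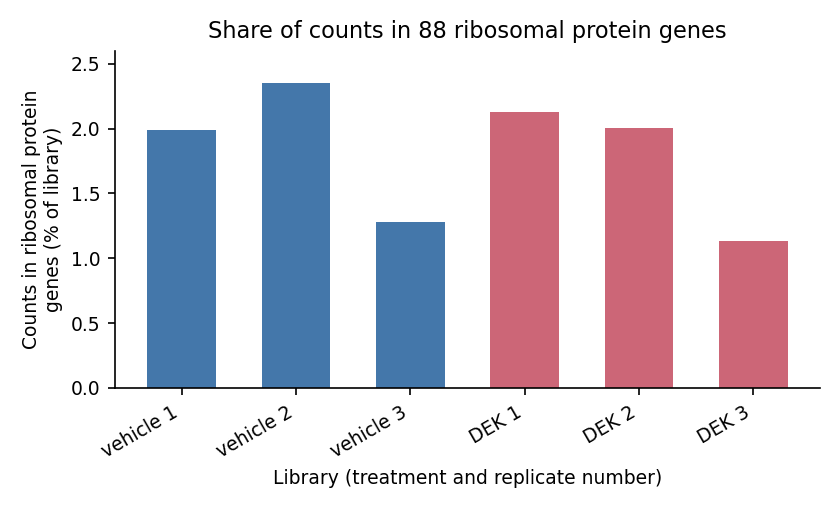
Percentage of each library's counts that fell in the 88 genes, for the 3 vehicle libraries (blue) and the 3 DEK libraries (red). The libraries numbered 3 are the lowest of each group, at 1.28 and 1.13%, and the other 4 lie between 1.99 and 2.35%.

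None of the 85 genes tested was called between DEK and vehicle. Their median log2 difference (DEK minus vehicle) was -0.08, against 0.00 over all genes tested, and 63 of the 85 lay below 0. Without vehicle replicate 2 or without DEK replicate 3 this median turned to 0.05 and 0.06. edgeR's quasi-likelihood test without a block called 0 of 13803 genes (0%) at an adjusted p of 0.05, with 360 genes and 0 members at an unadjusted p below that value. DESeq2 called 58 genes and 0 members, and limma-voom called 0 of either. With the replicate number as a block, edgeR called 177 genes (1.28%; 0.869% higher and 0.413% lower) and again 0 of the 85. The median within pairs was -0.08, with pair medians of -0.03, -0.13 and -0.04, and 3 of the 85 members had an unadjusted p under 0.05, against 1581 of the 13803 genes. Without both libraries numbered 3, an alternative chosen after the data were seen, the unblocked test called 0 members of 168 called genes and the median was -0.10.

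The smallest unadjusted p within pairs belonged to Rps15a, a small subunit protein, at a log2 difference of -0.25 ± 0.0975 (SE; adjusted p = 0.336, edgeR). It stood at 349, 367 and 235 CPM with vehicle and at 331, 288 and 190 with DEK, lower in 3 of 3 pairs, but the groups overlapped. Rps6, whose protein is the classic substrate of S6 kinase, had -0.31 ± 0.127 (adjusted p = 0.348, edgeR), at 26.2, 25.7 and 17.9 CPM with vehicle and 25.5, 18.1 and 13.6 with DEK. Rpl22, a large subunit protein, had -0.25 (adjusted p = 0.438, edgeR).

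Groups that did not overlap were found for 1 member. Rpl12, a large subunit protein at the base of the stalk, stood at 2.56, 2.93 and 3.01 CPM with vehicle and at 2.21, 1.91 and 1.90 with DEK, with an unpaired log2 difference of -0.49 ± 0.237 (adjusted p = 1.00, edgeR). Over all genes tested, 3.41% had every DEK library below every vehicle library and 3.78% above. No member had all DEK libraries above vehicle. The next smallest unpaired p belonged to Rpl34 (-0.60 ± 0.425), 59.9% of whose exon bases lie in Rpl34-ps1, to Rps19bp1 (0.27 ± 0.198) and to Rpl23a (-0.50 ± 0.428), all with an adjusted p of 1.00 in edgeR.

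The precision differed with the level. For the 52 genes that averaged 10 CPM or more, the 95% interval of the log2 difference within pairs reached a median of 0.24 to either side, and for 51 of the 52 it lay inside a 2-fold change in either direction. Without the block the median reach was 0.63, and 47 of the 52 intervals lay inside 2-fold. A difference between the DEK effect in number 3 and that in numbers 1 and 2, a term added after the data were seen, was called for 0 of 13803 genes and 0 of the 85 by edgeR. Its smallest unadjusted p among members was 0.012, for Rps25 (adjusted p = 0.410, edgeR), whose exons overlap Ccdc84.

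Across replicate numbers the picture was different: most of the abundant ribosomal protein genes were lower in both libraries numbered 3. With treatment kept in the model, 44 of the 85 genes were lower in number 3 than in the mean of numbers 1 and 2, 2 were higher and 39 were not called (edgeR). Over all genes tested, 17.7% were called lower and 21.6% higher, 39.3% in all. The median log2 difference of the members was -0.53, against -0.02 over all genes. Both libraries numbered 3 lay below the other 4 for 51 of the 85 members and above them for 5 (Rpl3l, Rps13, Rpl9, Rpl10 and Rpl10a), where all genes gave 27.2% and 27%. Within the groups, the members' median was -0.56 with vehicle and -0.50 with DEK. The small subunit gave 18 lower and 1 higher of 33 tested, with a median of -0.57, and the large subunit 26 lower and 1 higher of 51, with a median of -0.49.

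The direction of the member calls held under every scaling tried, while that of all genes did not. Scaled by library totals alone, 51 members were lower and 1 higher with a median of -0.68, and the median of all genes itself moved to -0.18, with 30.3% called lower and 17.2% higher. With upper-quartile factors 47 were lower and 1 higher, the members' median was -0.62 and that of all genes -0.11, with 25.3% lower and 18.7% higher. All 44 lower calls were among the 52 members that averaged 10 CPM or more, where 51 of 52 differences were below 0. In 9130 genes of that level the test called 20.5% lower and 22.4% higher. Of the 33 members under 10 CPM, 0 were called lower and 2 higher (6.06%), where 17.7% and 21.6% of all genes tested were. The share over all genes under 10 CPM is not given here. The median of these 33 members was -0.17, and 20 of the 33 differences were below 0.

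**Figure D3:**
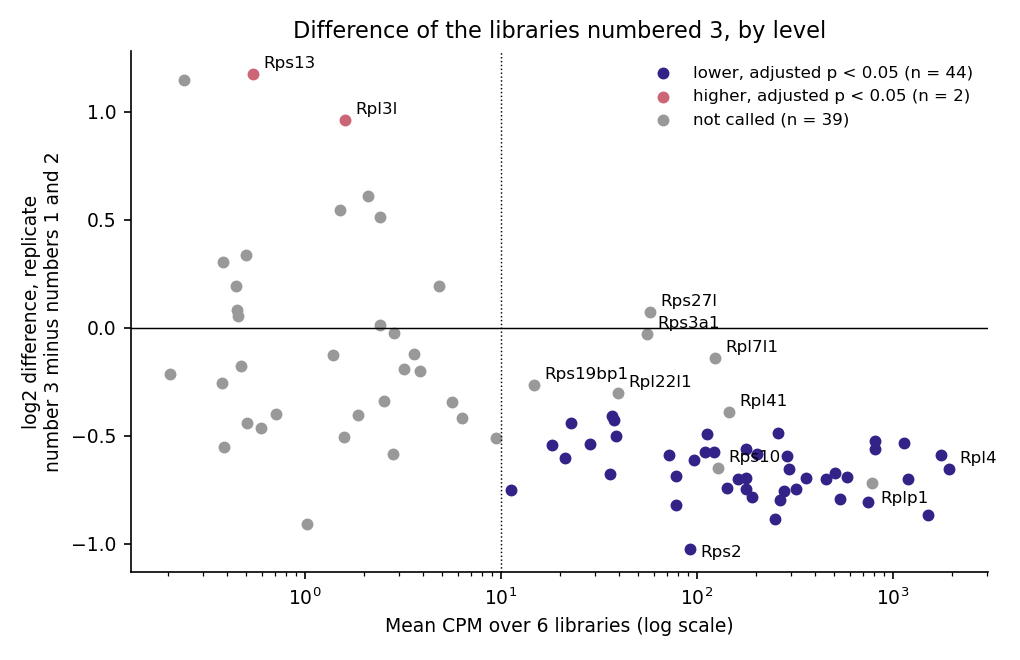
The log2 difference of the libraries numbered 3 from the mean of numbers 1 and 2, for 85 genes, against the mean CPM over 6 libraries (log axis). Colours give edgeR's call at an adjusted p of 0.05, and the dotted line marks 10 CPM. To its right, 44 of 52 genes are called lower and the rest lie between -0.72 and 0.07.

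Proteins of both subunits were among the members with the smallest p. Rpl3, which lies near the site where peptide bonds form, stood at 85.4, 89.0 and 52.1 CPM with vehicle and at 102, 89.0 and 51.0 with DEK, 1.77-fold lower in number 3 (log2 -0.82 ± 0.107 SE, adjusted p = 8.21e-05, edgeR). Rps2, at the mRNA entrance of the small subunit, had the largest fall of all tested members: 99.3, 119 and 48.1 CPM with vehicle and 84.9, 140 and 59.7 with DEK (log2 -1.02 ± 0.127, adjusted p = 8.55e-05, edgeR). In both genes the libraries numbered 3 did not overlap the other 4.

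Rps3 (chromosome 7, 99477897 to 99483709 on mm10, minus strand), of whose windows 0% are shared, was chosen for that after its values were seen. It stood at 1953, 2137 and 1279 CPM with vehicle and at 1865, 1926 and 1338 with DEK, and both libraries numbered 3 were below the other 4 (log2 -0.59 ± 0.115, adjusted p = 0.00159, edgeR). Among the 53 tested genes with under 50% of the windows of the chosen mRNA shared, 32 were lower (60.4%) and 1 was higher, with a median of -0.54. The 30 with 50% or more shared had 11 lower (36.7%) and 1 higher, with a median of -0.41, where 17.7% of all genes tested were lower. These classes also differ in level. The median was 4.79 CPM per kb with 50% or more shared, 78.0 with 20 to under 50% and 486 with under 20%. All 44 lower calls were at 10 CPM or more, and the percentages were not compared at like level. Rps21 fell by 0.75 on the log2 scale. Rpl4, which lines the tunnel of the nascent chain and held more counts than any other member, fell by 0.65, with 107150, 91462 and 48797 counts with vehicle and 102360, 102631 and 57666 with DEK.

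The stalk proteins recruit elongation factors to the large subunit. Rplp0, its base, fell to 505 and 466 CPM in number 3, from 653 and 1142 with vehicle and 697 and 987 with DEK (log2 -0.81 ± 0.112, adjusted p = 0.000139, edgeR). Rplp2 fell by 0.80 on the log2 scale. Rplp1 had a difference of -0.72 with an SE of 0.364 and was not called (adjusted p = 0.23, edgeR). Its libraries were uneven within numbers 1 and 2, at 704 and 1028 CPM with vehicle and 1108 and 747 with DEK, against 680 and 428 in number 3. limma-voom called it (adjusted p = 0.0308), and so did edgeR without vehicle replicate 1, vehicle replicate 3 or DEK replicate 1, with log2 differences of -1.02, -1.12 and -0.41.

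Of 9 genes mutated in Diamond-Blackfan anaemia, 4 fell in number 3 (44.4%), where 51.8% of all members and 17.7% of all genes tested were called lower. These were Rps26 (log2 -0.88 ± 0.164), Rps24 (-0.67 ± 0.154), Rps19 (-0.59 ± 0.116) and Rpl35a (-0.58 ± 0.145), with adjusted p from 0.0016 to 0.0117 in edgeR. Rpl35a was not called without vehicle replicate 2 (adjusted p = 0.0762, edgeR). Rps19, the gene mutated most often in that disease, stood at 317, 335 and 193 CPM with vehicle and 284, 366 and 239 with DEK, with number 3 below the other 4. Rps10 was uneven, at 162, 149 and 75.8 CPM with vehicle and 102, 170 and 109 with DEK, and its difference of -0.65 ± 0.297 was not called (adjusted p = 0.177, edgeR). DESeq2 and limma-voom called it, as did edgeR without vehicle replicate 1, DEK replicate 1 or DEK replicate 3. Rps7 (74 to 181 counts, -0.59), Rpl5 (16 to 45, -0.46) and Rpl11 (93 to 161, -0.02) had few counts and were not called. For Rpl11 the sign depended on the libraries kept.

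Rps14, whose loss of 1 copy underlies the anaemia of the human 5q syndrome, fell by 0.53 on the log2 scale, but was not called without vehicle replicate 2 (adjusted p = 0.0528) or vehicle replicate 3 (0.133) in edgeR. Rps6 fell by 0.60 and Rpsa, named for its second role as a laminin receptor, by 0.54. Rpsa lost its call without any 1 of vehicle replicates 1, 2 and 3 and DEK replicate 2, with adjusted p of 0.0637 to 0.198 in edgeR. Rps27a, which is made as a fusion with ubiquitin, had 47 to 77 counts and a difference of 0.54 ± 0.316 (adjusted p = 0.192, edgeR). Of the windows of Rps27a 70.7% are shared, and 11.1% of its exon bases lie in Clhc1 on the opposite strand. Their part in its low counts was not tested.

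**Figure D4:**
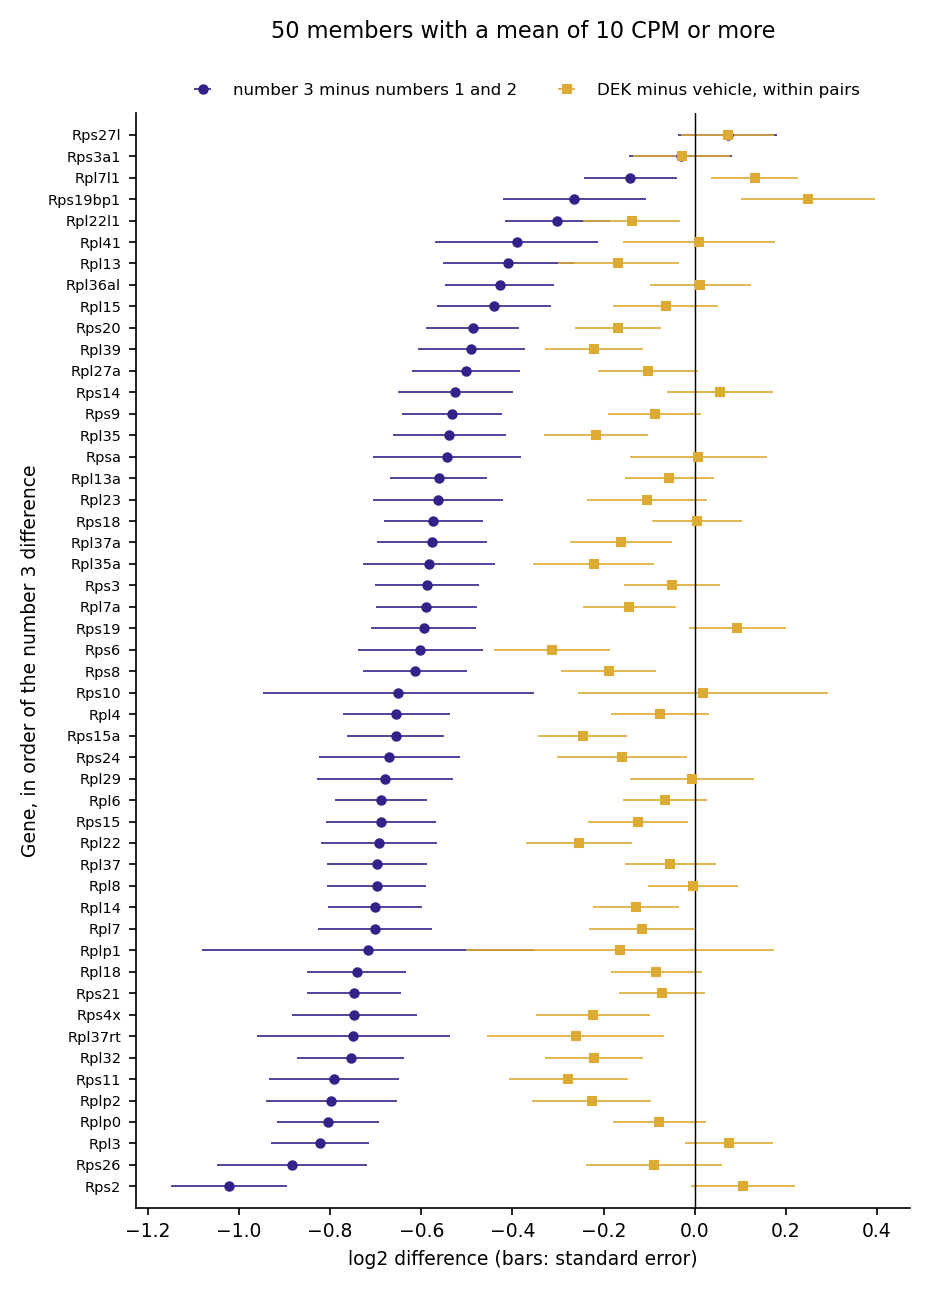
For 50 of the 52 genes that averaged 10 CPM or more, the log2 difference of number 3 from numbers 1 and 2 (circles) and of DEK from vehicle within pairs (squares), with bars of 1 standard error. Circles reach from -1.02 for Rps2 to 0.07 for Rps27l, while the squares of the same genes lie between -0.31 and 0.25.

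Of the 52 genes at or above 10 CPM, 8 were not called lower in number 3. Besides Rplp1 and Rps10 they were Rpl41 (-0.39), Rpl22l1 (-0.30), Rps19bp1 (-0.26), Rpl7l1 (-0.14), Rps3a1 (-0.03) and Rps27l (0.07). Of these 6, Rpl22l1, Rpl7l1 and Rps27l are paralogs of other members, and Rps19bp1 is the row that is no ribosomal protein. Rps27l, a paralog that p53 is known to induce, stood at 59.8, 53.9 and 55.0 CPM with vehicle and 53.9, 59.3 and 64.5 with DEK. Its difference turned to -0.02 with upper-quartile factors and to -0.08 with library totals alone. Rpl22l1 was close to the threshold (adjusted p = 0.0542, edgeR) and was called under 4 of the alternatives, and Rpl7l1 was called with library totals alone (-0.29).

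In 4 of the 8 paralog pairs, the second gene had a larger part of the pair's level per length in both libraries numbered 3 than in any other. Rpl22l1 had 40 and 42.6% of the sum of Rpl22 and Rpl22l1 in the libraries numbered 3 and 33.4 to 36.8% in the others. Rpl22, the partner, fell by 0.69 on the log2 scale. Rpl7l1 had 11.1 and 11.7% against 6.72 to 10.5%, beside a fall of Rpl7 by 0.70. Rpl3l, known from muscle, had 3.35 and 4.16% against 0.861 to 1.42%, and Rpl3l was itself higher in number 3 (log2 0.96 ± 0.285, adjusted p = 0.0179, edgeR) on 44 to 112 counts. That call was lost without DEK replicate 1, 2 or 3. The other pair, Rpl39 and Rpl39l, rests on few counts of Rpl39l. No test was run on these percentages.

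Rps27l held 98.5 to 99.4% of the sum with Rps27, and Rpl36al 98 to 99% of the sum with Rpl36a, in all 6 libraries. Rps27 and Rpl36a share 98.5 and 84.6% of their windows with other genes, and the part of this in their low counts was not tested. Rpl36al, whose gene shares 38.1% of its windows, fell by 0.43 (adjusted p = 0.0134, edgeR), which was lost without vehicle replicate 1, vehicle replicate 3 or DEK replicate 2. Rpl39 fell by 0.49 and lost its call without vehicle replicate 2 or 3, while Rpl39l had 5 to 22 counts (1.15 ± 0.602). Rps4x, on the X chromosome, fell by 0.75. Rps4l had 107 to 299 counts (-0.12), and Rpl10l was at 0 beside 164 to 242 counts for Rpl10 (0.20).

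Among the low genes, Rps13 was called higher in number 3 on 15 to 36 counts (log2 1.17 ± 0.427, adjusted p = 0.0451, edgeR). The call was lost under 10 alternatives, each library left out among them. Rps23 had the lowest uncalled difference (-0.91 ± 0.412, adjusted p = 0.0976, edgeR) on 13 to 71 counts, and Rpl10a a difference of 0.61 ± 0.245 (adjusted p = 0.0667, edgeR).

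Members were called lower in number 3 both among those with a pyrimidine run at the annotated start and among those without one by the rule above. Of the 28 with a run, 17 were lower (60.7%) and 0 higher, with a median of -0.55. Of the 36 tested without one, 16 were lower (44.4%) and 2 higher, with a median of -0.44, where 17.7% of all genes tested were lower. The difference between these was not tested. Both classes depend on where the start is annotated. Rpl4, Rps25, Rpl13 and Rpl5, counted as without a run, have pyrimidine stretches before that start, beyond the reach of the rule. The start matched for Rps4x, also without a run, lay 1020 bases from the bound of the gene as counted. Whether genes without a run by this rule lack a TOP motif was not tested. Of 25 other mRNAs known to carry a TOP motif, translation factors but also Vim, Nap1l1, Npm1 and Cct8 among them, 16 were lower, 1 was higher and 8 were not called, with a median of -0.47. Their summed level was 12590 to 12650 CPM in number 3 and 17760 to 20290 in the rest. Eef2, which moves the ribosome along the mRNA, fell 1.90-fold (adjusted p = 9.92e-05, edgeR) and Eif3f, a subunit of an initiation factor, 1.69-fold (adjusted p = 0.000134, edgeR).

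Mitochondrial ribosomal proteins, which belong to a separate ribosome, had 14 lower (18.4%) and 2 higher of 76 tested, with a median of -0.19, where 17.7% of all genes tested were lower and 21.6% higher. Of 39 factors of ribosome assembly, 13 were lower, among them Pes1, needed for the large subunit (1.46-fold), and 0 were higher, with a median of -0.23. Genes of RNA polymerase I, which makes the ribosomal RNA precursor, were divided at 6 lower and 4 higher of 15, with a median of -0.01. Of 17 regulators of TOP mRNAs and of ribosomal protein genes, 5 were higher and 1 lower. Mxd1 and Mxi1, which compete with MYC for its partner MAX, were 6.52-fold and 2.15-fold higher. Max itself was 2.01-fold higher (adjusted p = 4.59e-06, edgeR). Mdm2, which the 5S particle with Rpl5 and Rpl11 inhibits, was also among the higher ones, at 62.4 to 69.4 CPM in numbers 1 and 2 and 100.3 and 141.9 in number 3. Myc was not called (-0.22, adjusted p = 0.128, edgeR).

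Cell type markers moved with the same libraries. Of the neutrophil list, 10 of 13 tested markers were higher in number 3 and 1 lower, with a median of 3.06, and Ltf was 22.6-fold higher. Of 6 tested erythroid markers, 5 were higher, and the list summed to 1951 to 3063 CPM against 677 to 902.8. Progenitor markers had 7 of 10 lower and summed to 632.8 to 656.8 CPM against 977 to 1211. All 7 B cell markers, all 5 basophil and mast cell markers and 5 of 6 eosinophil markers were lower. Proliferation markers had 2 of 8 higher, and their sums met at 1515 CPM. In the other lists, calls were mixed or few: 2 higher and 3 lower of 8 monocyte and macrophage markers, 1 higher of 6 megakaryocyte markers, and 1 higher and 1 lower of 6 T and NK cell markers. In bulk RNA, fewer cells of a type and less RNA per cell cannot be told apart, and the part of these cell types in the fall was not tested. When the neutrophil markers were left out of the totals, the share of the 88 genes was 1.38 and 1.21% in number 3 and 2.02 to 2.39% in the rest. Only the 13 marker rows were taken out. All other RNA of these cells stayed in the totals, so these shares do not measure the part of neutrophils in the fall.

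Rps3a1, an early-binding protein of the small subunit (chromosome 3, 86137940 to 86142668 on mm10, minus strand), followed the replicate number in another way. It had 1294, 3884 and 1465 counts with vehicle and 988, 4774 and 2175 with DEK, or 26.2, 97.2 and 43.6 CPM and 22.1, 94.1 and 50.3 CPM. In both groups number 1 was lowest, number 2 highest and number 3 between them. Number 2 was 3.96-fold above number 1 (log2 1.99 ± 0.135, adjusted p = 1.59e-05, edgeR). It was the only 1 of the 85 members called in that comparison, where edgeR called 7 of 13803 genes (0.0507%), all higher in number 2. DEK and vehicle did not differ beyond the spread, with a log2 difference of -0.0039 (adjusted p = 1.00, edgeR).

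The members as a whole had a median difference of -0.01 between numbers 2 and 1. The next members were Rplp0 (0.65 ± 0.126, adjusted p = 0.136), Rps4l (1.05 ± 0.243, adjusted p = 0.356) and Rps2 (0.48 ± 0.14, adjusted p = 0.746) in edgeR. Rplp0 was called by DESeq2, with no filter and with library totals alone, and all 3 were called without vehicle replicate 3 or without DEK replicate 3. Without vehicle replicate 2 or DEK replicate 2, the difference of Rps3a1 was 1.97 and 2.00 but was not called (adjusted p = 0.151 and 0.0952, edgeR). Of the windows of Rps3a1, 60.2% are shared, with 7 pseudogenes, and none of the 12 exon overlaps involves it.

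The other 6 genes called between numbers 2 and 1, named here after their values were seen, were Galnt9, Rnase12, Camk2b, Anxa9, Capza1 and 3830403N18Rik. Galnt9 had 0 counts in both libraries numbered 1, 317 and 672 in number 2, and 47 and 114 in number 3, so its order was that of Rps3a1. Rnase12 also had that order, with 37 and 27 counts in number 1, 659 and 506 in number 2 and 188 and 254 in number 3. The other 4 did not have it in both groups. Anxa9 and 3830403N18Rik were highest in number 3 of both groups. Anxa9 stood at 1.14, 4.55 and 5.86 CPM with vehicle and 0.647, 4.73 and 5.97 with DEK in numbers 1, 2 and 3. 3830403N18Rik stood at 0.365, 2.73 and 4.14 CPM with vehicle and 0.424, 2.48 and 3.26 with DEK. Camk2b had its highest value in number 2 with vehicle (0.264, 3.80 and 3.69 CPM) and in number 3 with DEK (0.424, 2.68 and 5.32). Capza1, which caps actin filaments, had 16.2 and 20.8 CPM in number 1, 47.2 and 43.7 in number 2 and 46 and 48.6 in number 3.

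**Figure D5:**
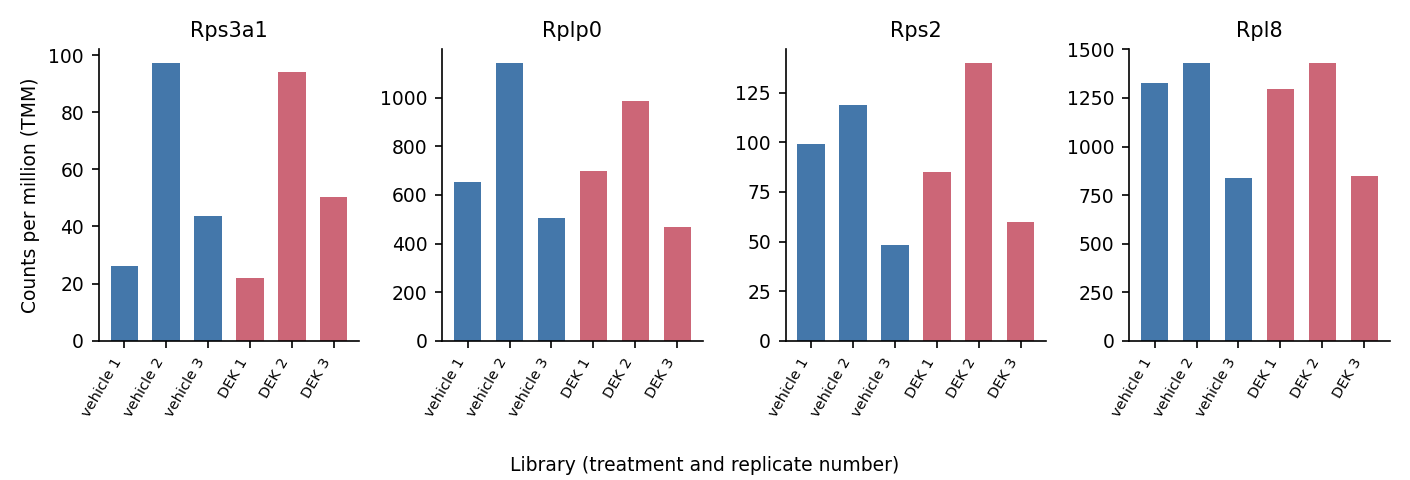
TMM-scaled CPM of Rps3a1, Rplp0, Rps2 and Rpl8 in each library (vehicle blue, DEK red, each panel with its own axis from 0). Rps3a1 is lowest in number 1 and highest in number 2 of both groups, while Rplp0, Rps2 and Rpl8 are lowest in number 3.

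Rpl8, a protein of the peptidyl transferase region, gives the usual course of the abundant members. It stood at 1326, 1428 and 839 CPM with vehicle and 1298, 1429 and 849 with DEK. Numbers 1 and 2 differed little in both groups, and number 3 lay below all 4 of them.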

How the data were processed

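Strand-specific libraries of polyadenylated RNA were sequenced, per the labels' protocols. The deposited table holds raw read counts per gene on mm10, made with featureCounts 1.6.1 over exons, per the file headers, with no option for strand, read pairs, multiple mapping or overlapping genes. The submitters' processing notes name Trim Galore, STAR, HTSeq and edgeR. The table's exon length per gene, another deposited column, gave levels per kb. All 6 count columns were matched by name, and 0 were unmatched.

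From these counts, 13803 genes passed filterByExpr. They were tested with edgeR 4.0.16 in R 4.3.3 (TMM, robust quasi-likelihood, two-sided, Benjamini-Hochberg over all genes, threshold 0.05): DEK against vehicle without and with the replicate number as a block, and contrasts of replicate numbers with treatment in the model. SEs derive from the F statistic. Residual degrees of freedom were 4 without and 2 with the block. DESeq2 1.42.0, limma-voom (limma 3.58.1), other scalings, no filter, Rn45s left out and each library left out were alternatives. The fits were tested on simulated data.

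Deviations from group means correlated across genes by 0.55, 0.56 and 0.80 for equal numbers, so by the rule used (all above 0.1) the numbers were taken as pairs. Unequal numbers 1 and 2 also reached 0.52 and 0.41, so the rule could not tell equal from unequal numbers among these 4 libraries. Named genes were taken by role, paralogy, smallest p in each fit, extremes of level per length and extremes of the number 3 difference, and some that this rule takes are not reported here. The members, gene lists, rule and tests were chosen with earlier results of these data known. Of the fixed symbols, Ly6g, Trbc2, Bxdc1, Rio1, Efl1 and Polr1f had no row. Of 9 snoRNA host genes, 3 were lower and 2 higher in number 3, and of 4 tested ribosomal protein pseudogenes 1 was lower. CPM values used TMM factors, and per-library differences used log2 CPM with a prior count of 2. Reads carry no molecular identifiers.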

Additional observations from a re-analysis of the deposited data

How the results depend on the processing

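DEK against vehicle called 0 members under every alternative run, and its median over members ranged from -0.24 to 0.06 when single libraries were left out. With the replicate block the median was -0.08 and the count 0. Leaving out pairs gave 0 members called and medians of -0.11 to -0.04, and 0 to 641 genes called over the whole table. All genes called within pairs were 177, and 349 with no filter, 347 with DESeq2 and 368 with library totals alone.

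For number 3, 37 to 52 members were called under all alternatives, against 46, and 37 to 47 with single libraries left out. In the main fit 39.3% of all genes tested were called. The median moved beyond the spread with upper-quartile factors (-0.62), library totals alone (-0.68) and, among medians of -0.56 to -0.47 with 1 library left out, without vehicle replicate 1. That spread was the SD of only 2 values, the members' medians within vehicle (-0.56) and within DEK (-0.50), and does not measure the spread between replicates. For number 2 against number 1, 2 members were called with library totals alone, no filter and DESeq2, and 0 to 4 with 1 library left out, where the median ranged from -0.019 to 0.078. The main fit called 1 member and 0.0507% of all genes tested. Counts over all genes under these alternatives are not given here, so a rise among members cannot be told from one over the whole table. The mean share was 1.64 to 2.17% (vehicle) and 1.57 to 2.06% (DEK) with 1 library left out.

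Differences that were not called changed sign in 12 cases for number 3. With upper-quartile factors and library totals alone, Rps27l took -0.019 and -0.083. With 1 library left out, Rpl11 ranged from -0.18 to 0.14, Rpl36a from -0.83 to 0.46, Rps27l from -0.036 to 0.19, Rps19bp1 from -0.53 to 0.0049 and Rps3a1 from -0.20 to 0.14. Of the 21 called single genes named for that contrast, 269 of 294 alternative values kept the call and 25 lost it with the same sign. The causes of these changes were not tested. Low counts limit the members under 10 CPM: Rpl39l had 5 counts in its lowest library.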
